A study of Homo sapiens with 39 samples.

Results

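The genes described here are 29 genes of cholesterol and fatty acid synthesis, of 23710 gene symbols measured by RNA sequencing. They were named as known pathway genes, and no measured value was used to pick them. Earlier results of these data were known when the list was made. By role they are 7 genes of the mevalonate steps and 9 of the steps between squalene and cholesterol. A further 4 are SREBP control genes, namely SREBF1 and SREBF2, which encode the SREBP transcription factors, and SCAP and INSIG1. The rest are the sterol carrier STARD4, 7 genes of fatty acid synthesis and desaturation, and the lipin LPIN1. The study varied TRIM37, a ubiquitin ligase, in 39 libraries of human cell lines and compared gene expression. In RPE1, an hTERT-immortalised retinal pigment epithelial line, 9 TRIM37 knockout libraries were set against 9 wild type libraries, which are numbered as 3 sets of 3. In CHP-134, a neuroblastoma line, 3 libraries each of the TRIM37 mutant clone 2 and clone 1, labelled as partial knockouts, were set against the same 3 wild type libraries. In RPE1 clones 5 and 4, which carry a TetOn TRIM37 construct, 3 libraries each after 1 µM doxycycline for 24 h were set against 3 untreated libraries of the same clone.

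Both arms of each TetOn comparison carry the construct, and no cells without it received doxycycline, so effects of the drug and of TRIM37 cannot be told apart. Each CHP-134 mutant and each TetOn line is 1 clone, and the labels name no clone for the RPE1 knockout. RPE1 and CHP-134 were grown in different media, both with fetal bovine serum, which supplies cholesterol in lipoproteins. No source used here says that replicates were separate cultures, so p-values measure the spread between libraries, which may be technical. If the 3 libraries of a wild type set share a culture, the SEs of the knockout table are too small, which was not tested.

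Cholesterol is built from acetyl-CoA through mevalonate and squalene, and fatty acids from the same precursor through malonyl-CoA. Most of these enzymes are switched on by SREBP2 (gene SREBF2) and SREBP1 (SREBF1), which SCAP carries to the Golgi for cleavage when membrane sterol is low and which INSIG1 holds back when sterol is plentiful. Because the genes share this switch, they often move together when cells meet a change in sterol or serum supply.

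Each comparison rests on the authors' deposited table of that comparison, which gives per gene a Status, a q value, a mean count over both groups and the log2 fold change together with its SE (standard error). No value per library was analysed here, so group means below are derived from the mean count and the fold change, and depth per library is unknown. Every log2 fold change, SE, mean count and Status below is the authors' deposited value, and every adjusted p was computed here. A gene was called where the two-sided Wald test, the fold change over its SE, gave a Benjamini-Hochberg adjusted p under 0.05 over all genes above the low-count Status. All 29 genes passed that limit in all 5 tables, with mean counts of at least 110. The deposited fold changes of genes with almost no counts were small with small SEs, with an SE of at most 0.377 below a mean count of 1 in the knockout table. How the fold changes were estimated is not given in the sources used here, and fold changes of low genes may therefore be understated. The same may hold for well-counted genes whose SE lies near the largest of its comparison. Examples are HMGCS1 in CHP-134 clone 1 (SE 0.283, largest 0.286) and SCD in TetOn clone 4 (SE 0.2, largest 0.204). Derived means and 95% intervals of such genes carry the same limit.

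TRIM37 set the direction of each table. In the authors' deposited tables it fell by 1.95 (log2, SE 0.0461) on knockout, it fell by 1.75 (SE 0.0416) in clone 2 of CHP-134 and it fell by 1.66 (SE 0.0337) in clone 1. On doxycycline it was 2.64 (SE 0.0419) in TetOn clone 5 and 3.19 (SE 0.0441) in clone 4. The CHP-134 tables held 8 of 10 neuroblastoma markers above the limit, with HAND2 at mean counts of 7630 in the clone 2 table and 7580 in the clone 1 table, while DBH and TH were under it. The RPE1 knockout table had 8 of 12 listed RPE1 markers above the limit, with VIM at 263000, and the pigment epithelium genes RPE65, BEST1, RLBP1 and TYR were under it. Of these 8 markers, 3 rose and 3 fell in the knockout, with COL1A1 at -1.78, MITF at -0.77, KRT8 at -0.46 and CAV1 at 0.57. Of the neuroblastoma markers, 2 were above the limit there, and GATA3 was at 4.53 (mean count 52.5). The part of these marker changes in the lipid gene values of the knockout was not tested.

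In RPE1, knockout of TRIM37 went with slightly lower expression of most of the sterol pathway. Of the 29 genes, 18 fell and 4 rose, and the lanosterol demethylase CYP51A1 and the sterol carrier STARD4 fell most. The changes were small: the median log2 fold change over the 29 genes was -0.11, against -0.0016 over all 13280 genes tested. So many genes differed in this comparison that 26.8% of all genes were called lower and 26.8% higher, and the 18 falls among 29 genes are to be read beside that share. Fewer cells of a kind and less RNA per cell cannot be told apart in bulk libraries, and with 9 libraries a group small differences pass the test.

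**Figure D1:**
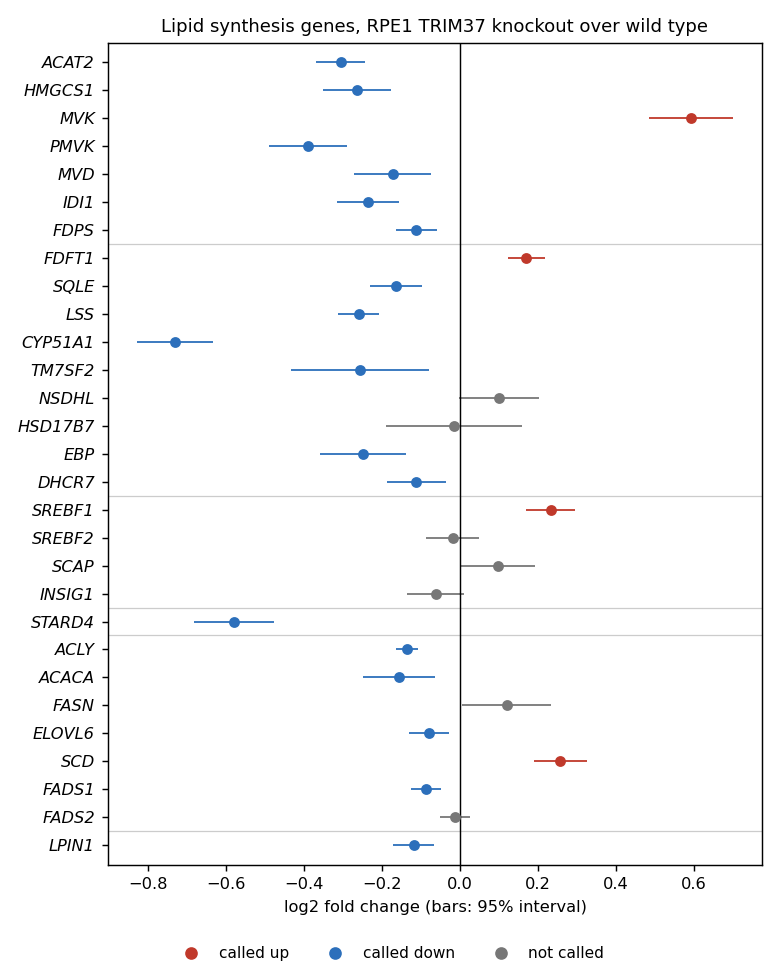
Log2 fold change (x axis) of the 29 genes (y axis, grouped by role) in RPE1 TRIM37 knockout over wild type cells. Points are the authors' deposited values, bars are 95% intervals, and colour gives the call; 18 genes lie below 0 as called, with CYP51A1 at -0.73, and MVK is highest at 0.59.

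Of the 7 mevalonate genes, 6 fell and 1 rose in the knockout. HMGCS1, which makes HMG-CoA, had a derived mean count of 1590 in knockout cells and 1910 in wild type cells, a log2 fold change of -0.26 (SE 0.044). PMVK, phosphomevalonate kinase, had 632 in knockout cells and 828 in wild type cells, a log2 fold change of -0.39 (SE 0.051, Wald adjusted p = 2.03e-13). ACAT2, the cytosolic thiolase that makes acetoacetyl-CoA, had 2180 in knockout cells and 2700 in wild type cells, a log2 fold change of -0.31 (SE 0.032). The other falls were smaller, with log2 fold changes of -0.24 for the isomerase IDI1, -0.17 for the decarboxylase MVD and -0.11 for FDPS, which makes farnesyl diphosphate.

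The exception was mevalonate kinase, MVK, with a derived mean count of 1000 in knockout cells and 666 in wild type cells, a log2 fold change of 0.59 (SE 0.055). MVK lies on chromosome 12, whose genes had a median log2 fold change of 0.51 in the same comparison. With that chromosome median subtracted, MVK was at 0.077 (Wald adjusted p = 0.242), so its rise was about that of its chromosome as a whole. The cause of the shift of chromosome 12 was not tested.

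Between squalene and cholesterol, 6 of 9 genes fell and 1 rose. CYP51A1, which removes the 14-alpha methyl group of lanosterol, had a derived mean count of 1350 in knockout cells and 2230 in wild type cells, a log2 fold change of -0.73 (SE 0.049, Wald adjusted p = 4.02e-48). LSS, the cyclase that closes the sterol rings, had 2960 in knockout cells and 3540 in wild type cells, a log2 fold change of -0.26 (SE 0.027). The squalene epoxidase SQLE was at -0.16 and DHCR7, the reductase that yields cholesterol, at -0.11. The sterol reductase TM7SF2 was at -0.26 (SE 0.09) and the isomerase EBP at -0.25 (SE 0.056). FDFT1, the squalene synthase that commits farnesyl diphosphate to sterols, rose, with 4710 in knockout cells and 4190 in wild type cells (log2 fold change 0.17, SE 0.025). NSDHL and HSD17B7, which act together in C4 demethylation, were at 0.099 (SE 0.052) and -0.016 (SE 0.089) and were not called.

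STARD4, a soluble carrier that moves cholesterol between membranes, had a derived mean count of 810 in knockout cells and 1210 in wild type cells, a log2 fold change of -0.58 (SE 0.052, Wald adjusted p = 2.51e-27). CYP51A1, STARD4 and MVK were the 3 genes that stayed called when the test statistics were rescaled to the central spread of all genes, with Wald adjusted p of 0.00101, 0.0286 and 0.0354.

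Of the 4 regulators, 1 rose and 0 fell in the knockout. SREBF2 was at -0.019 (SE 0.034), INSIG1 at -0.063 (SE 0.037) and SCAP at 0.096 (SE 0.049), and none of these 3 was called. SREBF1, the SREBP gene tied mainly to fatty acid synthesis, rose, with a derived mean count of 3810 in knockout cells and 3250 in wild type cells (log2 fold change 0.23, SE 0.032).

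The fatty acid genes were mixed, with 4 of 7 lower and 1 higher in the knockout. SCD, which puts the first double bond into saturated fatty acids, rose to a derived mean count of 24000 in knockout cells, against 20000 in wild type cells (log2 fold change 0.26, SE 0.035). ACLY, which makes cytosolic acetyl-CoA from citrate, fell to 15500 in knockout cells, against 17100 in wild type cells (log2 fold change -0.14, SE 0.014). ACACA, the acetyl-CoA carboxylase, was at -0.16 (SE 0.047), and the desaturase FADS1 and the elongase ELOVL6 were called at -0.087 and -0.079. FASN, the fatty acid synthase, at 0.12 (SE 0.058), and FADS2 at -0.013 (SE 0.02) were not called. LPIN1, a phosphatidate phosphatase of glycerolipid synthesis, fell by 0.12 (SE 0.027).

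Related genes outside the 29 give the setting, and their counts stand beside 26.8% of all genes called lower and 26.8% higher. Of 11 other sterol pathway genes above the limit, 4 fell and 1 rose in the knockout. DHDDS of dolichol synthesis fell by 0.22 (SE 0.039), while the mitochondrial reductase FDXR rose by 0.47 (SE 0.071). Of 22 genes of sterol uptake, sensing and export, 9 rose and 2 fell. SCARB1, the HDL receptor, rose by 0.75 (SE 0.027), and MYLIP, a ligase that degrades lipoprotein receptors, by 1.29 (SE 0.15). MBTPS2, a protease that releases active SREBP, fell by 0.20, and NPC2, a lysosomal cholesterol carrier, by 0.06. Of 31 other fatty acid and glycerolipid genes, 13 rose and 7 fell, among them the acyl-CoA synthetase ACSL5 at 1.42, LPIN2 at 0.28, ACSL4 at -0.27 and FADS3 at -0.43.

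In CHP-134 most of the 29 genes carried a warning mark, and more of them were called in clone 2 than in clone 1. In clone 2, 7 of the 29 genes fell and 2 rose, and in clone 1 a single gene, ACLY, fell and 0 rose. The 7 falls in clone 2 stand beside 23.7% of all genes called lower and 23.6% called higher. In clone 1, 8.77% of all genes were called lower and 10.7% higher. There 2 of the 29 genes had an unadjusted Wald p under 0.05, as had 4160 of all 13462 genes. The median log2 fold change of the 29 genes was -0.18 in clone 2, against -0.0035 over all genes, and -0.064 in clone 1, against -0.00057 over all genes. Both clones were compared with the same wild type libraries, so the tables are not independent.

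**Figure D2:**
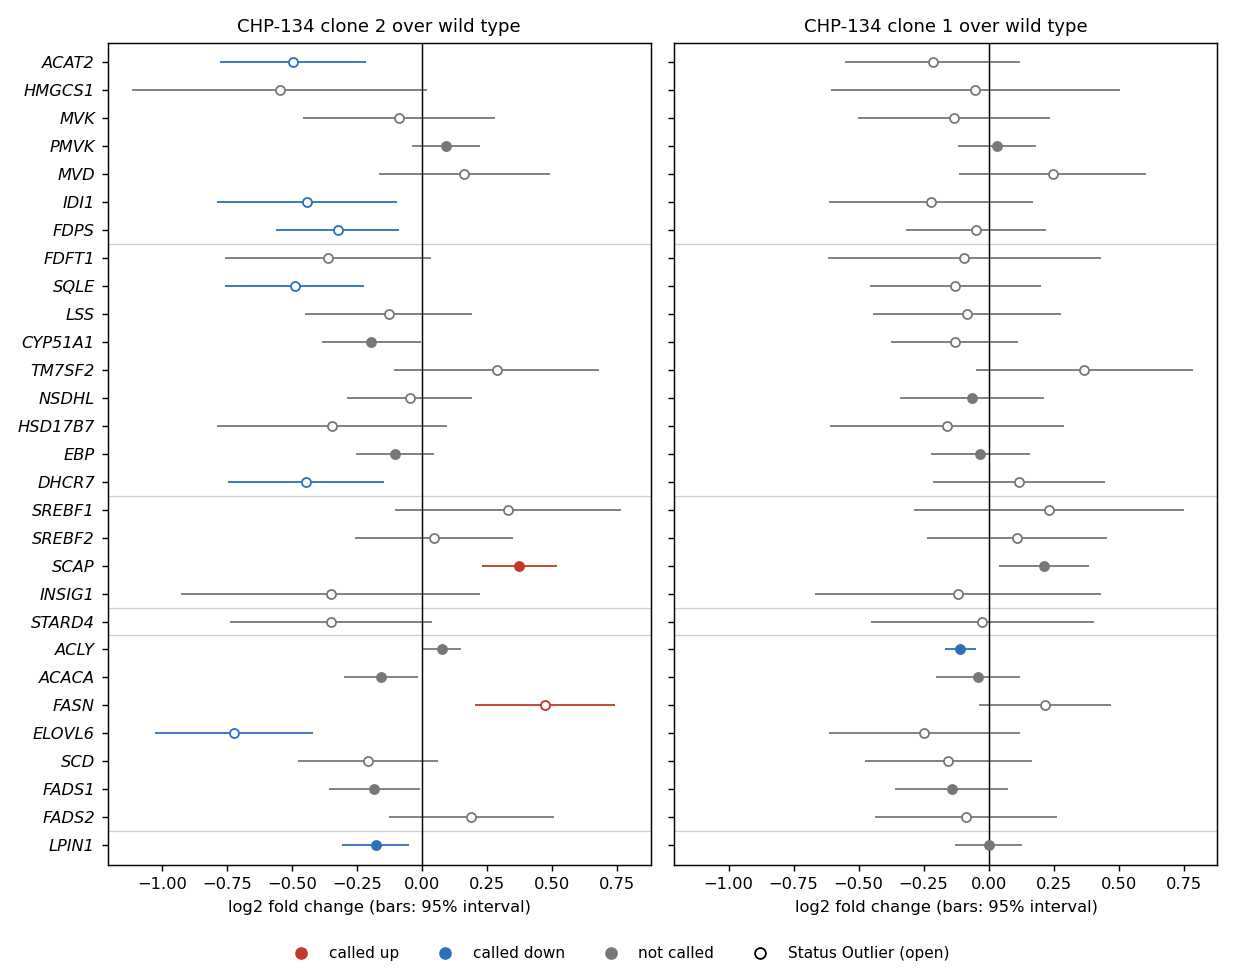
Log2 fold change (x axis, bars are 95% intervals) of the 29 genes in CHP-134 clone 2 (left) and clone 1 (right), each over the shared wild type. Open points carry the Status Outlier, 21 of 29 in each panel; in clone 2 ELOVL6 at -0.72 is lowest and FASN at 0.47 highest.

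The mark is the Status Outlier, which 21 of the 29 genes carried in clone 2 and 21 in clone 1, which is 72.4% in each table. Over all tested genes the share was 5.45% in the clone 2 table and 4.98% in the clone 1 table. The rule that named the 29 genes already said that most carry this mark in CHP-134, so the excess was known beforehand. The files do not define the Status. As background, DESeq2, which the submitters name, sets aside genes in which the count of 1 library lies far from the rest. The genes with the Status OK in clone 2 were PMVK, CYP51A1, EBP, SCAP, ACLY, ACACA, FADS1 and LPIN1. In clone 1 they were the same genes with NSDHL in place of CYP51A1. The rest, including HMGCS1, SQLE, DHCR7, INSIG1, both SREBF genes, FASN and SCD, were Outlier in both tables.

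The mark went with large standard errors. Among genes whose mean count reached 1000, the median SE in clone 2 was 0.144 for the 25 sterol and fatty acid genes and 0.0674 for all 6136 genes. In clone 1 it was 0.169 for the 25 and 0.0612 for all 5936 genes. The RPE1 knockout table showed no such excess, with a median SE of 0.0347 for the 24 such genes and 0.0385 for all 6639, and 0 of the 29 were Outlier there. HMGCS1 and INSIG1, textbook SREBP targets, had SEs of 0.289 and 0.294 in clone 2 and 0.283 and 0.281 in clone 1. Of the 50 genes with the largest SEs at such counts, 49 were Outlier in clone 2 and 50 in clone 1. Among those 50, 5 were of the 29 in clone 2 and 6 in clone 1. HMGCS1, INSIG1, FDFT1, SREBF1 and STARD4 were in both, and IDI1 was the other in clone 1. Which library or group the spread comes from was not tested, since no value per library was analysed here.

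**Figure D3:**
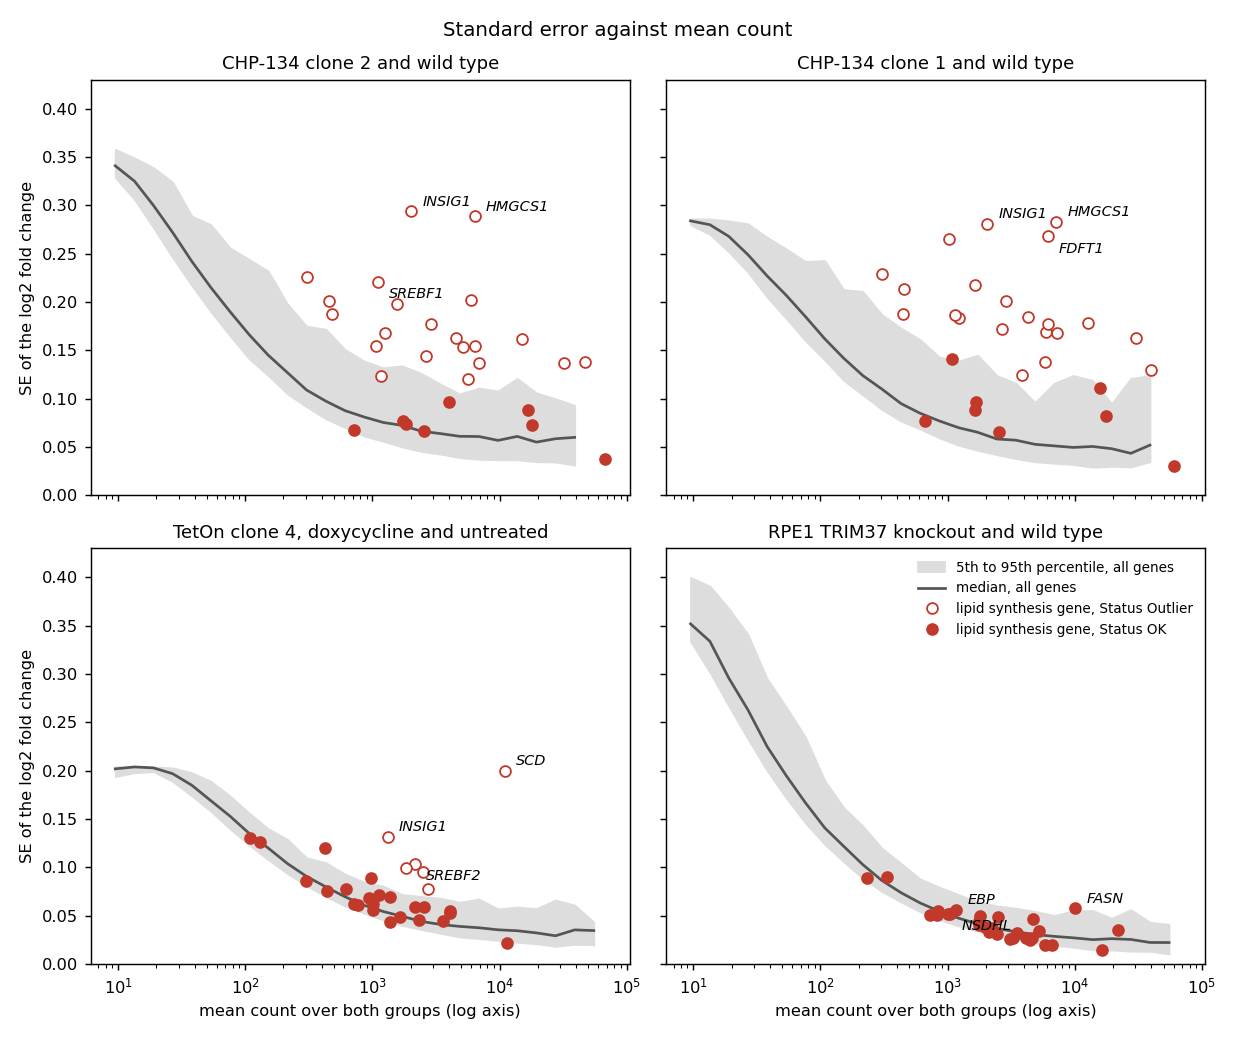
SE of the log2 fold change (y axis) against the mean count (x axis, log scale) in 4 tables, with the median and the 5th to 95th percentile of all genes in bins. Most of the 29 genes (red) lie above the band in both CHP-134 tables, SCD at 0.2 and INSIG1 stand out in TetOn clone 4, and those of the RPE1 knockout mostly follow the median line.

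The promoters of the 29 genes were searched for the motifs of SREBP and of factors known to work beside it. RefSeq promoter windows (GRCh38.p14, 250 bases before to 50 after the gene start) were matched for 25 of the 29 genes. The sterol regulatory element TCACNCCAC, read on both strands, was found in 1 of the 25 windows, that of SREBF2, or 4%, against 1.15% of all 27305 windows. The NF-Y box CCAAT, bound by a factor that works beside SREBP, was in 15 of 25 windows (60%), against 35.7% of all windows and 36.4% of 15843 windows of coding genes. The SP1 box GGGCGG was in 23 of 25 (92%), against 58.5% of coding windows, and the E-box CACGTG in 3 of 25 (12%), against 8.88%. A match is a description of these letters and not a site, and none of the motifs searched contains another. Printed here are the SREBF2 stretch with the element in capitals, and those of HMGCS1 and INSIG1 with the NF-Y box, read here as ATTGG, in capitals. The last pair was chosen after their SEs were seen.
SREBF2: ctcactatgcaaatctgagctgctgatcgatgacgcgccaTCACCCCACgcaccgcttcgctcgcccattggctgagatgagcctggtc
HMGCS1: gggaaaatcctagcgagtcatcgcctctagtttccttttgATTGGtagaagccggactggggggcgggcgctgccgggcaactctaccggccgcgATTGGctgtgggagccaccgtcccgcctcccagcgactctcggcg
INSIG1: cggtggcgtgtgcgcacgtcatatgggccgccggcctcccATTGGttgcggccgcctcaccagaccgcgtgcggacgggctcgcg
These are chr22:41832932-41833020 on the plus strand, chr5:43313468-43313607 on the minus strand and chr7:155297668-155297752 on the plus strand. All 3 stretches lie upstream of the gene start, where the element of SREBF2 begins 133 bases before it, the boxes of HMGCS1 155 and 100 bases before it and the box of INSIG1 170 bases before it.

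In clone 2, 3 of 7 mevalonate genes fell and 0 rose. ACAT2 had a derived mean count of 2170 in clone 2 and 3070 in wild type cells, a log2 fold change of -0.50 (SE 0.144, Wald adjusted p = 0.00208). IDI1 had 2440 in clone 2 and 3320 in wild type cells, a log2 fold change of -0.44 (SE 0.177), and FDPS had 5000 in clone 2 and 6260 in wild type cells, a log2 fold change of -0.32 (SE 0.12). All 3 carried the Outlier mark. HMGCS1 had the largest difference of these genes, 5170 in clone 2 and 7550 in wild type cells, but its SE of 0.289 left it uncalled (Wald adjusted p = 0.106).

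Of the 9 genes between squalene and cholesterol, 2 fell in clone 2. SQLE, which epoxidises squalene, had a derived mean count of 5760 in clone 2 and 8080 in wild type cells, a log2 fold change of -0.49 (SE 0.137, Wald adjusted p = 0.00135). DHCR7 had 4380 in clone 2 and 5960 in wild type cells, a log2 fold change of -0.45 (SE 0.153). Both were Outlier. CYP51A1, the gene that fell most in the RPE1 knockout, was at -0.19 (SE 0.097, Wald adjusted p = 0.085) in clone 2 with the Status OK and was not called.

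SCAP, the SREBP escort, rose in clone 2, with a derived mean count of 2090 in clone 2 and 1610 in wild type cells (log2 fold change 0.38, SE 0.074, Wald adjusted p = 2.95e-06). It had the Status OK, and in clone 1 it was at 0.21 (SE 0.088, Wald adjusted p = 0.0756). SREBF1 at 0.33 (SE 0.221), SREBF2 at 0.045 (SE 0.155) and INSIG1 at -0.35 (SE 0.294) were not called in clone 2.

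Among fatty acid genes of clone 2, the elongase ELOVL6 fell most of the 29, with a derived mean count of 800 in clone 2 and 1320 in wild type cells (log2 fold change -0.72, SE 0.155, Wald adjusted p = 2.05e-05). FASN rose, with 54700 in clone 2 and 39300 in wild type cells (log2 fold change 0.47, SE 0.138). Both were Outlier. LPIN1 fell with the Status OK, to 2370 in clone 2, against 2690 in wild type cells (log2 fold change -0.18, SE 0.067). Of the 9 genes called in clone 2, 7 were Outlier, and the authors' own q, which is 1 for every Outlier gene, called only SCAP and LPIN1. With each chromosome's median subtracted, IDI1 and LPIN1 were no longer called (Wald adjusted p = 0.0807 and 0.274), and ACACA at -0.22 and FADS1 at -0.24 were.

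In clone 1, the 95% intervals of 20 of the 29 genes lay within a 1.5-fold change either way, and in clone 2 those of 16. The lowest lower limit was -1.11 in clone 2 (HMGCS1) and -0.67 in clone 1 (INSIG1), and the highest upper limit was 0.76 in clone 2 (SREBF1) and 0.78 in clone 1 (TM7SF2). ACLY, the gene called in clone 1, had 57700 in clone 1 and 62300 in wild type cells (log2 fold change -0.11, SE 0.03, Wald adjusted p = 0.00346), with the Status OK.

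The difference between the clones was tested directly. Of 13358 genes, 9.21% were called higher and 11.2% lower in clone 2 relative to clone 1, and of the 29 genes 1 was higher and 0 were lower. That gene was ACLY, at a log2 fold change of 0.076 in clone 2 and -0.11 in clone 1, a difference of 0.185 (SE 0.049, Wald adjusted p = 0.00139). DHCR7 was at -0.45 in clone 2 and 0.12 in clone 1, a difference of -0.56 (SE 0.228, Wald adjusted p = 0.0621). With chromosome medians subtracted the calls changed places, with ACLY at 0.12 (Wald adjusted p = 0.0584) and DHCR7 at -0.61 (Wald adjusted p = 0.0389). So the falls called in clone 2 and not in clone 1, DHCR7 apart, are not shown to differ between the clones by either form of the test. Because the clones share wild type libraries, this test overstates the error.

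Other lipid genes were called in clone 2 as well, where 23.7% of all genes were called lower and 23.6% higher. In clone 1 those shares were 8.77% lower and 10.7% higher. Of 11 other sterol pathway genes above the limit, 5 fell and 1 rose in clone 2, and 1 fell and 1 rose in clone 1. In clone 2 these included MSMO1, which oxidises the C4 methyl groups and was Outlier, at -0.59 (SE 0.201), and SC5DL, the lathosterol desaturase, at -0.21. FDXR rose by 1.34 in clone 2 and by 0.85 in clone 1, and LBR fell by 0.22 in clone 1. Of 23 genes of uptake, sensing and export, 7 fell and 3 rose in clone 2, and 2 fell and 0 rose in clone 1. The cholesterol exporter ABCA1 fell by 2.61 (SE 0.286, mean count 59.8) and MYLIP by 1.14 in clone 2, where the sterol sensor NR1H2 rose by 0.43 and STARD3 by 0.24. In clone 1 the falls were those of SOAT1, which esterifies cholesterol, by 0.22 and of NPC2 by 0.74 (SE 0.27, mean count only 15.5).

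Of 31 other fatty acid and glycerolipid genes, 10 rose and 10 fell in clone 2, and 2 rose and 2 fell in clone 1. These counts stand beside the same shares of all genes. CPT1A, which admits fatty acids to the mitochondrion, rose by 0.60 and the lipase PNPLA2 by 0.86 in clone 2, while DGAT2 fell by 0.59 and ELOVL5 by 0.24. In clone 1 PNPLA2 rose by 0.42 and the citrate carrier SLC25A1, which was Outlier, by 0.43, while LPIN2 fell by 0.28 and SCD5 by 0.29. Among the 10 neuroblastoma markers, 4 rose and 2 fell in clone 2, with STMN2, which was Outlier, at -3.56 (SE 0.144). In clone 1, 4 rose and 0 fell. The part of these marker changes in the lipid gene values was not tested.

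Raising TRIM37 with doxycycline gave no called change in any of the 29 genes in either TetOn clone. In clone 5, 0.797% of all genes were called higher and 2.16% lower, and in clone 4 0.715% were called higher and 1.32% lower. In each clone 3 of the 29 genes had an unadjusted p under 0.05, as had 1335 of 12414 genes in clone 5 and 1308 of 12449 in clone 4. In clone 5 the 95% intervals of all 29 genes, and in clone 4 those of 28, lay within a 1.5-fold change either way.

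**Figure D4:**
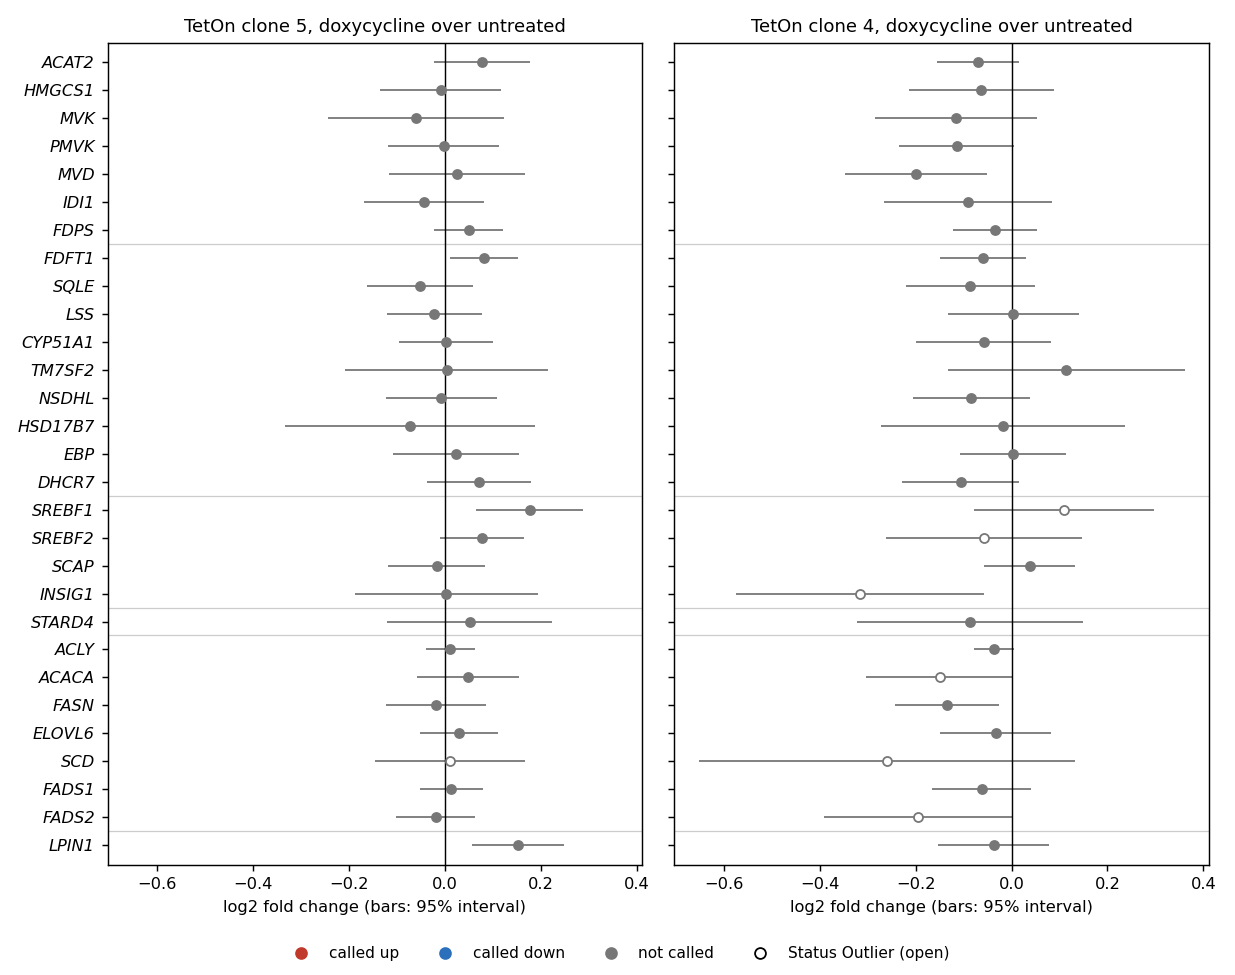
Log2 fold change (x axis, bars are 95% intervals) of the 29 genes on doxycycline over untreated cells in TetOn clone 5 (left) and clone 4 (right). No gene is called; open points carry the Status Outlier, SCD in clone 5 and 6 genes in clone 4, where INSIG1 at -0.32 is lowest.

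In clone 5 the values lay close to 0, with 18 of 29 positive, a median log2 fold change of 0.012 and a range of -0.072 to 0.18. SREBF1 had a derived mean count of 1390 with doxycycline and 1230 without it, a log2 fold change of 0.18 (SE 0.057, Wald adjusted p = 0.0572). LPIN1 had 1700 with doxycycline and 1520 without it, a log2 fold change of 0.15 (SE 0.049, Wald adjusted p = 0.0603). When genes with a mean count under 100 were left out, SREBF1 passed the threshold, with an adjusted p of 0.0492. The genes that fell most in the knockout were not called on doxycycline, with CYP51A1 at 0.003 (SE 0.05) and STARD4 at 0.052 (SE 0.088) in clone 5. In clone 4 they were at -0.058 (SE 0.071) and -0.086 (SE 0.12).

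In clone 4, 24 of 29 values were negative, with a median of -0.063 and a range of -0.32 to 0.11. The smallest Wald p-values were those of MVD at -0.20 (adjusted p = 0.201), FASN at -0.13 and INSIG1 at -0.32 (SE 0.132, Wald adjusted p = 0.289). INSIG1 had a derived mean count of 1180 with doxycycline and 1460 without it. In clone 4, 6 of the 29 genes were Outlier, 20.7% against 2.38% of all tested genes, namely INSIG1, SREBF1, SREBF2, SCD, ACACA and FADS2. In clone 5 only SCD was.

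SCD in clone 4 had the largest SE of all 5369 genes whose mean count reached 1000, 0.2, at a mean count of 11000. Its derived mean count was 10000 with doxycycline and 12000 without it. ABCA1, the cholesterol exporter, had the next largest SE, 0.178, and INSIG1 had 0.132. In clone 5 the SE of SCD was 0.08 and that of INSIG1 0.097. By role, the Outlier genes of clone 4 were 3 of the 4 SREBP control genes and 3 of the 7 fatty acid genes, and 0 of the 7 mevalonate genes.

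INSIG1, SCD and SREBF1 also differed in derived level between the untreated clones. Each of them was Outlier in clone 4, and SCD in clone 5 too. Which library their levels rest on was not tested. The median ratio of clone 5 to clone 4 over the 29 genes, relative to the median gene, was 1.02. Of the 29, 2 lay beyond a 2-fold difference. The sterol synthesis genes lay on both sides. TM7SF2 at 1.44, HMGCS1 at 1.31 and LSS at 1.27 were highest in clone 5, while FDPS at 0.858 and FDFT1 at 0.921 were lower. Relative to the median gene, the derived untreated level of INSIG1 in clone 5 was 0.351 of that in clone 4, from mean counts of 462 in clone 5 and 1460 in clone 4. For SCD the ratio was 0.374, from 4030 in clone 5 and 12000 in clone 4, and for SREBF1 it was 0.57. Over 10226 genes the middle 90% of such ratios ran between 0.751 and 1.42, and 2.3% of genes lay beyond a 2-fold difference either way. The clones were in separate tables with their own normalisation, so these ratios have no test.

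The difference of the TetOn responses was tested as for the CHP-134 clones. Of 12202 genes 0.0574% were called higher and 0.197% lower in clone 5 relative to clone 4, and 0 of the 29 genes in either direction. The difference was positive for 25 of the 29 genes, with a median of 0.077, against 0.0011 over all genes. For 6 of the 29 the unadjusted p was under 0.05, as it was for 803 genes in all. The largest of these differences was MVD, at 0.026 in clone 5 and -0.20 in clone 4, a difference of 0.23 (SE 0.104, Wald adjusted p = 0.68).

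Companion genes changed little on doxycycline. LBR, a sterol reductase of the nuclear envelope, rose by 0.20 (SE 0.047, Wald adjusted p = 0.00174) in clone 5 and by 0.16 (SE 0.032, Wald adjusted p = 9.52e-05) in clone 4. It was the 1 gene called among 11 other sterol pathway genes in each clone. Of the uptake, sensing and export genes, the lysosomal transporter NPC1 rose by 0.19 and the lysosomal lipase LIPA fell by 0.14 among 22 in clone 5. Among 21 in clone 4 the sterol sensor NR1H3 fell by 0.55. None of 30 other fatty acid and glycerolipid genes was called in either clone.

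The wild type lines also differed in the levels of these genes. Relative to the median gene, 23 of the 29 genes were higher in wild type CHP-134 than in wild type RPE1, and 8 were over 2-fold higher, against 14.1% of 9711 genes. The highest ratios were those of HMGCS1 at 4.1, FASN at 4.1, ACLY at 3.93, ACACA at 3.91 and SQLE at 3.69. FASN, ACLY and ACACA lie on chromosome 17, as does SREBF1, which was lower in CHP-134. No chromosome median was subtracted from these ratios, and a part of chromosome 17 in them was not tested. The derived mean count of HMGCS1 was 7280 in wild type CHP-134 and 1910 in wild type RPE1, and that of FASN was 36900 in CHP-134 and 9680 in RPE1. Only SREBF1 at 0.314 and ELOVL6 at 0.416 were over 2-fold lower in CHP-134, where 20% of all genes were. Both were Outlier in CHP-134. Of the genes over 2-fold higher, HMGCS1, SQLE, DHCR7, FASN and FADS2 were Outlier there, and ACLY, ACACA and FADS1 were OK.

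**Figure D5:**
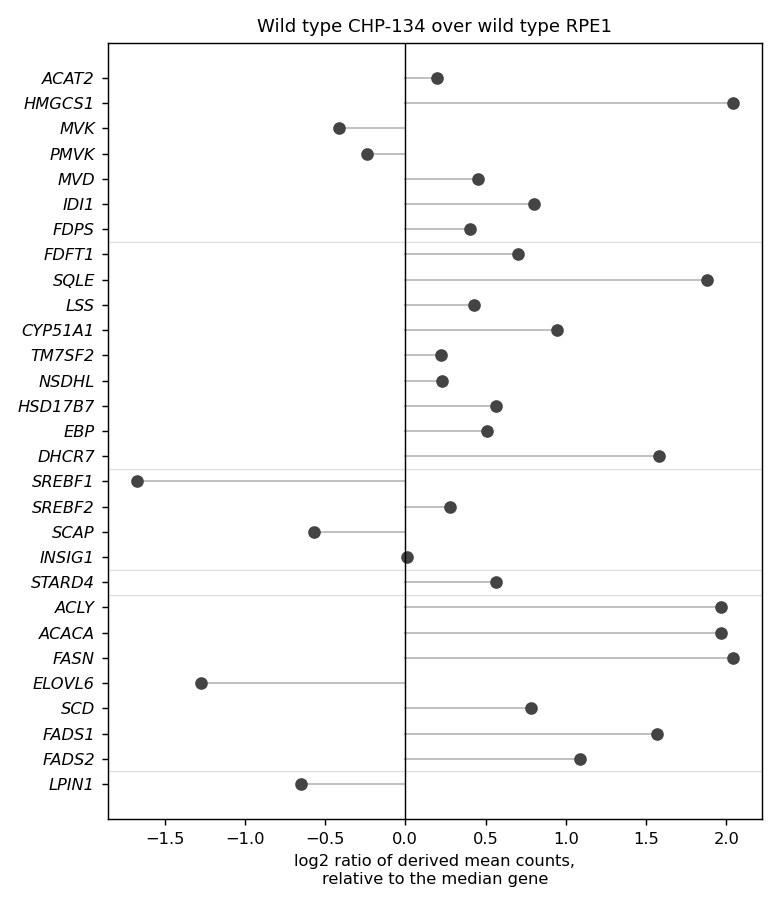
Log2 ratio (x axis) of derived mean counts in wild type CHP-134 over wild type RPE1, relative to the median gene, for the 29 genes (y axis, by role). HMGCS1, FASN, ACLY and ACACA lie near 2, and SREBF1 at -1.67 is lowest. HMGCS1, FASN and SREBF1 were Outlier in CHP-134, which the points do not mark.

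These ratios join separately normalised tables and carry no test, and medium and line cannot be told apart. On a scale of derived mean count per kilobase of the longest transcript, ACLY was at 14400 in wild type CHP-134 and 3930 in wild type RPE1, and SCD at 5970 in CHP-134 and 3740 in RPE1. FASN was at 4310 in CHP-134 and 1130 in RPE1, and FDPS at 3990 in CHP-134 and 3250 in RPE1. FADS1 at 3690 and FADS2 at 3630 followed in CHP-134, where SCD, FASN, FDPS and FADS2 were Outlier. Without values per library the order of these levels within a line cannot be tested.

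Across the 5 comparisons most calls came in the RPE1 knockout, and some genes were called there and in a CHP-134 clone. ACAT2, IDI1, FDPS, SQLE, DHCR7, ELOVL6 and LPIN1 were called lower in the RPE1 knockout and in CHP-134 clone 2, comparisons with no library in common, and the first 6 of these were Outlier in clone 2. They are 38.9% of the 18 genes that fell in the knockout and all 7 that fell in clone 2. Over all 11959 genes above the limit in both tables, 26.9% of those lower in the knockout were lower in clone 2, and 29.9% the other way round. With the rescaled null none of the 7 was called in either comparison, and IDI1 and LPIN1 lost their clone 2 call with chromosome medians subtracted. ACLY was called lower in the RPE1 knockout and in CHP-134 clone 1. No gene was called in opposite directions in different comparisons. NSDHL, HSD17B7, SREBF2, INSIG1 and FADS2 were called in none.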

How the data were processed

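The samples were 39 RNA sequencing libraries in 9 groups. STAR and DESeq2 are named, without versions, per the submitters' processing notes. Genome build, annotation and strand setting are not stated in the sources used here, and reads of overlapping genes may be shared. The authors deposited 5 tables of 23710 genes. Per the file headers they hold a mean count (a signal averaged over both groups, scaling not stated), the log2 fold change, its SE, a q-value and a Status score of Low, OK or Outlier. Depth per library is unknown.

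The members and lists were chosen with earlier results of these data known. The direction of each table was set by TRIM37. The Wald p was adjusted over all genes not Low, with Outlier genes kept, and differences between clones used the root of the summed squared SEs. Group means were derived for groups of equal size. For CHP-134 wild type, present in 2 tables, the 2 derivations differed by a median of 0.0022 (log2) after scaling. That was over 10126 genes with the Status OK and a mean count of at least 100 in both. For the 29 genes, Outlier ones included, the median was 0.0046 and the largest difference 0.0361 (HMGCS1). Lengths were those of the longest GENCODE transcript. All 29 genes are accounted for; members called are given by value and the rest by value, range or count, and of each companion list at most the 2 smallest adjusted p per direction are named. Some genes of these lists are not reported here. Alternatives were an adjusted p under 0.01, a log2 fold change of 0.58 or more either way, a mean count of at least 100, the authors' q, a rescaled null and subtracted chromosome medians. Python 3.11.15, numpy 2.4.6, pandas 2.3.3, scipy 1.17.1 and matplotlib 3.10.9 were used, and the test was tried on simulated data.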

Additional observations from a re-analysis of the deposited data

Results flagged for a closer look

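ACLY, the citrate lyase, was called in the test of the difference between the CHP-134 clones. Its log2 fold change was 0.076 in clone 2 and -0.11 in clone 1, a difference of 0.185 (SE 0.049, Wald adjusted p = 0.00139). The gene had the Status OK in both tables and mean counts of 68000 in the clone 2 table and 60000 in the clone 1 table. With chromosome medians subtracted the difference was 0.12 (Wald adjusted p = 0.0584), and with the rescaled null it was not called either. Both clones share their wild type libraries.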

How the results depend on the processing

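The 22 calls in the RPE1 knockout became 2 with a log2 fold change of 0.58 or more either way and 3 with the rescaled null, in which the central spread of the statistics of all genes, 3.65 there, is set to 1. The 9 calls in CHP-134 clone 2 became 1 with that fold change, 0 with the rescaled null and 2 by the authors' q. The 1 call in clone 1 and the 1 call in the difference of clone 2 and clone 1 became 0 with the fold change minimum and 0 with the rescaled null. In TetOn clone 5, 0 calls became 1 (SREBF1) with a mean count of at least 100. The other counts of called genes stayed within 1.5 times, at an adjusted p under 0.01 and with chromosome medians subtracted among them, and no value changed sign while called. Subtracting chromosome medians changed which genes were called: MVK was lost and NSDHL (0.14) and SCAP (0.14) were gained in the knockout. No paired analysis was possible because the tables hold no value per library, and leaving out each replicate was not run for the same reason. Outlier genes, 21 of 29 in each CHP-134 table, limit what those tables show.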
